A study of Mus musculus with 4 samples.

Results

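Voltage-gated sodium and calcium channel subunits were followed in the hippocampus of Malat1 knockout mice and of wildtype mice. The set has 32 genes, listed by gene family, with earlier results of these data known: 9 pore-forming alpha subunits and 3 beta subunits of sodium channels, and 20 alpha1, alpha2delta, beta and gamma subunits of calcium channels. Of these, 30 had at least 1 transcript cluster (1 summary value per putative gene) that carried their symbol alone, among 20707 genes so named on the array. Scn2a1 was matched under the symbol Scn2a, of which it is a synonym in RefSeq. Scn4a and Cacnb3 had no such cluster and were not analysed here. A gene with several clusters was represented by the brightest. Of the 30 genes, 27 lay above a filter on dim signal, set at 5.70 on the log2 scale, and entered the test, which ran over 15995 genes. Scn7a, Scn9a and Scn11a lay below it and are given as levels.

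The compared groups were 2 Malat1 knockout mice and 2 wildtype mice, all untreated C57BL/6 males aged 3 months, with 1 array each. Littermates of either genotype formed pairs according to the series' design, but the labels do not say which animals were paired, nor which part of Malat1 was deleted. The RNA came from whole dissected hippocampus, although a label speaks of neurons. In such tissue, fewer cells of a type and less RNA per cell cannot be told apart.

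Voltage-gated sodium channels open when a neuron depolarises and carry the upstroke of the action potential. Voltage-gated calcium channels turn that depolarisation into calcium entry, which releases transmitter at terminals, shapes firing at the soma and dendrites, and signals to the nucleus. In both families a large pore-forming protein works with smaller auxiliary subunits that set its surface level, location and gating. Malat1 is a nuclear long noncoding RNA of splicing speckles.

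The genes of the set have start regions of very different base composition, shown here by the CG dinucleotide, which is frequent in CpG-island promoters. RefSeq windows of GRCm38.p6 were available for 24 of the 30 genes, with 34 windows in all because some genes have several annotated starts. Below, the 250 bases before the start are written 5′ to 3′ on the strand of the gene, with each CG in capitals. The Cacna1d window shown is the richest of the set in CG, the first Scn8a window is the richest among sodium channel genes, and the Scn2b window shares the lowest count of the set with a Cacnb1 window.
Cacna1d (chr14:30353487-30353736, minus strand): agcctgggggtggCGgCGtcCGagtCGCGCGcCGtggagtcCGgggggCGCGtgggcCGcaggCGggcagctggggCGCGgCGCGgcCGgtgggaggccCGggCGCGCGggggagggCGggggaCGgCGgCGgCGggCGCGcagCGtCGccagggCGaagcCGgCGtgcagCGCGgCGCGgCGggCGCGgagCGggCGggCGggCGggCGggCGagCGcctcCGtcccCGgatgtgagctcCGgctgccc
Scn8a (chr15:100870395-100870644, plus strand): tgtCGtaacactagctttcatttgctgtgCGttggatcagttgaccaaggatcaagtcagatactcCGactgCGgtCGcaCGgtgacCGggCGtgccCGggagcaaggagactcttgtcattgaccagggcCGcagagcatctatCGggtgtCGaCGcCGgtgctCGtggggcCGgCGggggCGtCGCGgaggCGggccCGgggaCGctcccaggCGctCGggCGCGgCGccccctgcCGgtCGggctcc
Scn2b (chr9:45117626-45117875, plus strand): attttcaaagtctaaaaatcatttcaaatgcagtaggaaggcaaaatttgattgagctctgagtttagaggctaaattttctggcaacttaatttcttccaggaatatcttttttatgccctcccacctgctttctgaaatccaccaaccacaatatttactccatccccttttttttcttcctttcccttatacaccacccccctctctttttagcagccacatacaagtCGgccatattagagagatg
These windows hold 50, 30 and 1 CG, at a G+C content of 86.4%, 68% and 38.4% in the order shown. Counted as CG-rich were windows with at least 50% G+C and an observed-to-expected CG ratio of at least 0.6. That held for 14 of the 34 windows (41.2%), against 31.3% of all 32851 windows in the RefSeq table. All 14 belonged to genes above the filter, which had 31 of the 34 windows, so 45.2% of theirs were CG-rich. Of the 3 windows of Scn7a, Scn9a and Scn11a, 0 were CG-rich. With only 3 such windows, these counts show no relation between base composition and signal. The GC box GGGCGG, searched on both strands, occurred in 14 windows of the set (41.2%, against 32.7% of all windows), and TATAAA on either strand in 2 (5.88%, against 12.4%). These are descriptions of letters in fixed windows and were not compared by a test.

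Malat1 itself, the check of the genotype labels, stood at 8.53 and 8.70 in the knockout arrays, against 11.19 and 11.25 in the wildtype arrays (log2 signal). Its difference was -2.61 ± 0.08 (SE; limma, adjusted p = 0.00639), and it was the only gene of 15995 past the threshold. Markers of dentate granule neurons (5 of 5), CA1 (4 of 4) and CA2 and CA3 neurons (4 of 4) lay above the filter. The filter is lenient, since 3 of 5 skeletal muscle markers, 3 of 5 sensory ganglion markers and 2 of 4 photoreceptor markers also lay above it. A level just over 5.70 therefore does not show that a gene is expressed. Knockout replicate 2 stood apart from the other 3 arrays: its median absolute difference from them was 0.076 to 0.083 over all genes tested, against 0.047 to 0.057 among the others.

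No sodium or calcium channel subunit passed the test for a difference between Malat1 knockout and wildtype hippocampus. Of the 27 genes tested, 0 passed the adjusted threshold in either direction, where 0.00625% of all genes tested (Malat1 alone) did so in limma's fit. At an unadjusted p under 0.05 the count was also 0 of 27, beside 3.86% of all genes tested. Differences between knockout and wildtype ran from -0.14 (Cacna1e) to 0.11 (Cacna2d4) on the log2 scale, with 13 genes above 0 and 14 below, and the share above 0 over all genes tested was 49.2%. The median difference was -0.006 in the set and -0.001 over all genes tested.

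These intervals put bounds on what could have been missed in the brightest cluster of each gene. For 23 of the 27 genes the 95% interval of the difference lay within 1.2-fold in both directions, which held for 71.1% of all genes tested. For all 27 it lay within 1.5-fold, which held for 95.9% of all genes tested. Cacna1e, Cacna1i, Cacna2d1 and Cacna2d4 were the 4 genes whose interval reached past 1.2-fold. No adjustment for multiple genes enters these intervals, and array signal compresses true ratios. Dimmer clusters of some genes were less tightly bounded and reached past 1.2-fold in the fit over all named clusters. Their intervals were -0.49 to 0.03 (Cacna1e), -0.44 to -0.11 (Cacna2d1), -0.15 to 0.72 (Cacna2d4) and -0.88 to 0.65 (Scn3a).

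**Figure D1:**
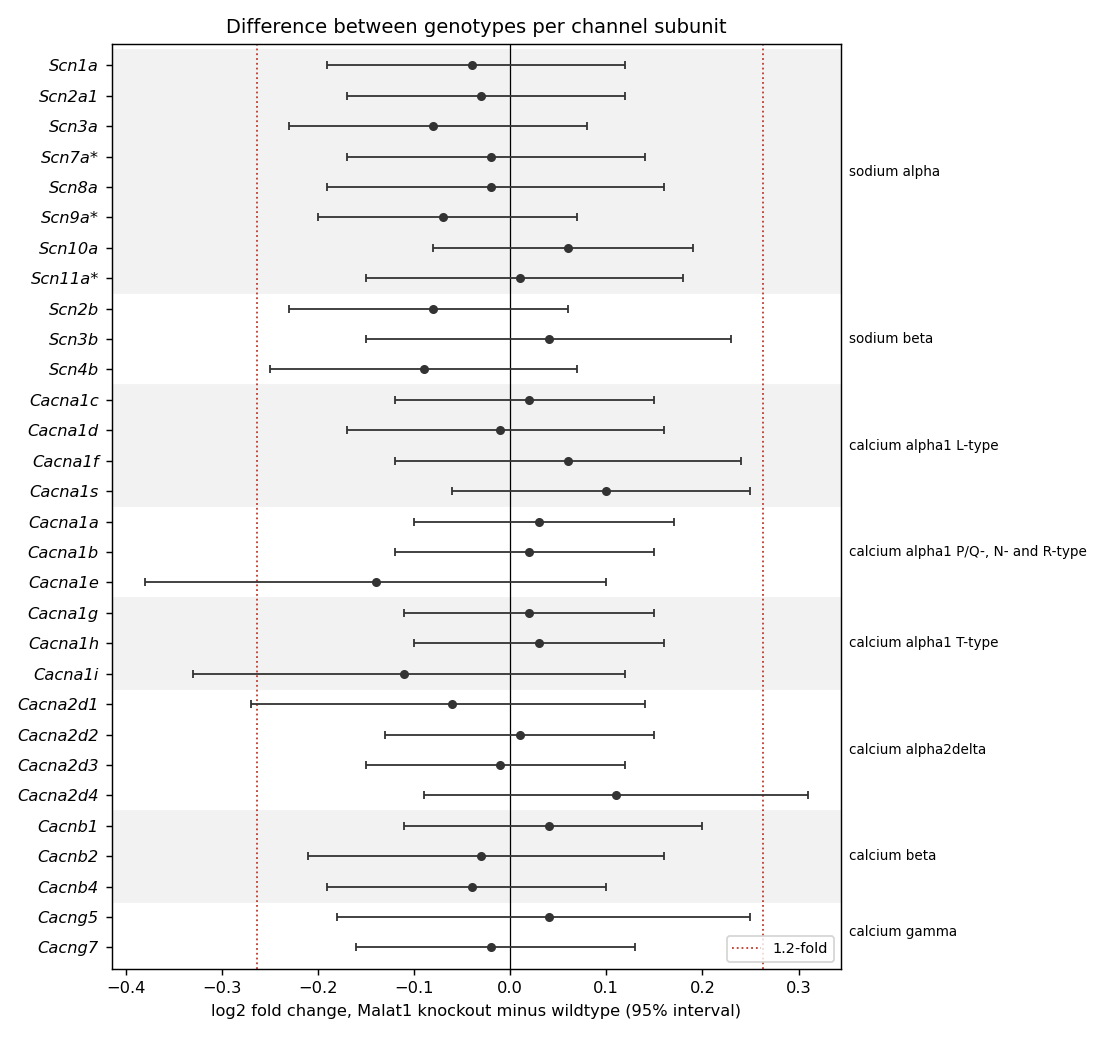
Difference in log2 signal between Malat1 knockout and wildtype hippocampus (horizontal axis) for the 30 measured channel subunits, grouped by role, with points for the estimate and bars for the 95% interval (2 arrays per genotype). Every interval spans 0, and dotted lines mark a 1.2-fold difference. Asterisks mark the 3 genes below the filter, whose values come from the fit without a filter.

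The sodium channel alpha subunits of central neurons differed by less than 0.1 on the log2 scale between the genotypes, and none of them passed the test. Scn8a, the main channel of nodes of Ranvier and the distal axon initial segment in adults, stood at 8.22 and 8.07 in knockout arrays, against 8.15 and 8.17 in wildtype arrays. The knockout values lay on either side of the wildtype values, and the difference was -0.02 (95% interval -0.19 to 0.16). Scn2a1, the channel of excitatory neurons that populates unmyelinated axons, had 8.18 and 8.09 in knockout arrays, against 8.17 and 8.16 in wildtype arrays. Here too the groups overlapped (difference -0.03, 95% interval -0.17 to 0.12).

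Scn1a, the channel on which fast-spiking interneurons depend and the gene of Dravet syndrome in humans, read 6.93 and 6.82 in knockout arrays, against 6.93 and 6.90 in wildtype arrays. Its groups overlapped, with a difference of -0.04 (95% interval -0.19 to 0.12). In Scn3a, which is most active in the developing brain, the knockout values of 6.96 and 6.85 both lay below the wildtype values of 6.98 and 6.99. That separation rested on a gap of 0.02 between the nearest arrays, and the difference of -0.08 did not pass the test (limma, adjusted p = 1). Scn1a, Scn2a1, Scn3a, Scn7a and Scn9a lie in 1 cluster on chromosome 2 and code for related proteins, so shared signal between their probes is possible and was not tested.

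The alpha subunits of peripheral neurons were dim. Scn10a, a sodium channel of nociceptive sensory neurons, read 5.91 and 5.94 in knockout arrays and 5.84 and 5.90 in wildtype arrays, near the filter. Both knockout values lay above both wildtype values, at a difference of 0.06 (95% interval -0.08 to 0.19). Below the filter, Scn9a and Scn11a, both also channels of sensory neurons, averaged 5.54 ± 0.04 and 5.55 ± 0.05 in knockout arrays, with 5.61 ± 0.02 and 5.54 ± 0.08 in wildtype arrays (SD, n = 2 each). Scn7a, which codes for a sodium-sensing relative without a role in the action potential, averaged 5.62 ± 0.06 in knockout and 5.64 ± 0.05 in wildtype arrays (SD, n = 2 each). In the fit without a filter, the differences of these 3 genes were -0.07, 0.01 and -0.02 for Scn9a, Scn11a and Scn7a.

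Of the sodium channel beta subunits, which anchor and modulate the alpha subunit, Scn2b and Scn4b were lower in both knockout arrays without passing the test. Scn2b, which is tied to the alpha subunit by a disulfide bond, stood at 9.37 and 9.28 in knockout arrays, against 9.41 and 9.40 in wildtype arrays. Its difference was -0.08 (95% interval -0.23 to 0.06). Scn4b, linked in the same way and known for its part in resurgent sodium current, had 6.51 and 6.40 in knockout arrays, against 6.55 and 6.55 in wildtype arrays (difference -0.09, 95% interval -0.25 to 0.07). In both genes knockout replicate 1 lay within 0.05 of the wildtype arrays and knockout replicate 2 lay farther off. Scn3b, which binds without such a bond, read 8.95 and 8.79 in knockout arrays, against 8.79 and 8.87 in wildtype arrays, and the groups overlapped (difference 0.04).

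Among high-voltage-activated calcium channels, Cacna1e had the lowest difference of the set. Cacna1e, the pore of the R-type channel, stood at 10.12 and 9.87 in knockout arrays, against 10.15 and 10.12 in wildtype arrays. Knockout replicate 1 was within 0.03 of both wildtype arrays, and knockout replicate 2 was 0.25 below the other knockout array. The difference was -0.14 ± 0.09 (SE; 95% interval -0.38 to 0.10; limma, adjusted p = 1). Leaving out knockout replicate 2 gave -0.02, and leaving out knockout replicate 1 gave -0.26. Cacna1a and Cacna1b are the pores of the P/Q-type and N-type channels, which trigger transmitter release. Cacna1a read 8.08 and 8.10 in knockout arrays, against 8.03 and 8.08 in wildtype arrays. Cacna1b read 8.26 and 8.21 in knockout arrays, against 8.22 and 8.22 in wildtype arrays. Their differences were 0.03 and 0.02, with intervals from -0.10 to 0.17 and from -0.12 to 0.15.

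The neuronal L-type pores, which couple calcium entry to transcription, had near-equal means in the groups. Cacna1c averaged 7.21 ± 0.03 in knockout and 7.20 ± 0.00 in wildtype arrays, and Cacna1d 7.23 ± 0.09 in knockout and 7.23 ± 0.00 in wildtype arrays (SD, n = 2 each). The L-type pores of other tissues lay near the filter. Cacna1s, the pore of skeletal muscle, read 6.06 and 6.13 in knockout arrays, against 5.96 and 6.03 in wildtype arrays. The knockout values were higher in both arrays, at a difference of 0.10 (95% interval -0.06 to 0.25), and its p of 0.165 in limma, unadjusted, was the smallest in the set. Cacna1f, the pore of photoreceptors, read 5.69 and 5.83 in knockout arrays, against 5.66 and 5.73 in wildtype arrays, and overlapped.

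T-type channels, which open at low voltage and support burst firing, gave 0 calls among 3 genes. Cacna1g had 7.87 and 7.83 in knockout arrays, against 7.83 and 7.82 in wildtype arrays, and Cacna1h had 8.35 and 8.32, against 8.29 and 8.32 in wildtype arrays. Their differences were 0.02 and 0.03. Cacna1i stood at 8.43 and 8.21 in knockout arrays, against 8.40 and 8.45 in wildtype arrays, so that knockout replicate 2 again lay apart from the other 3. Its difference was -0.11 (95% interval -0.33 to 0.12), at 0.01 when knockout replicate 2 was left out and -0.22 when knockout replicate 1 was.

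The alpha2delta subunits sit on the outer face of the channel and raise its surface level. Cacna2d1, a binding site of gabapentin, read 7.40 and 7.21 in knockout arrays, against 7.39 and 7.35 in wildtype arrays, and overlapped (difference -0.06, 95% interval -0.27 to 0.14). Cacna2d2, which also binds gabapentin, and Cacna2d3 had differences of 0.01 and -0.01. Cacna2d4, known from the retina, had the highest difference of the set, with 6.97 and 6.82 in knockout arrays, against 6.84 and 6.72 in wildtype arrays. The groups overlapped, and the difference was 0.11 ± 0.08 (SE; 95% interval -0.09 to 0.31; limma, adjusted p = 1). Leaving out knockout replicate 1 gave 0.04, where Cacna1s was highest at 0.14, and leaving out knockout replicate 2 gave 0.19. Leaving out wildtype replicate 1 or 2 gave 0.18 or 0.05.

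The beta subunits bind the channel from inside the cell and bring it to the membrane. Cacnb1, Cacnb2 and Cacnb4 had differences of 0.04, -0.03 and -0.04. Cacnb2 read 7.88 and 7.71 in knockout arrays, against 7.83 and 7.81 in wildtype arrays, with the wildtype values between the knockout values. Cacng5 and Cacng7 code for gamma subunits that also act as auxiliary proteins of AMPA receptors. Cacng5 had 7.06 and 7.15 in knockout arrays, against 6.98 and 7.16 in wildtype arrays, a spread of 0.13 (SD) between wildtype arrays that exceeded its difference of 0.04. Cacng7 had a difference of -0.02.

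**Figure D2:**
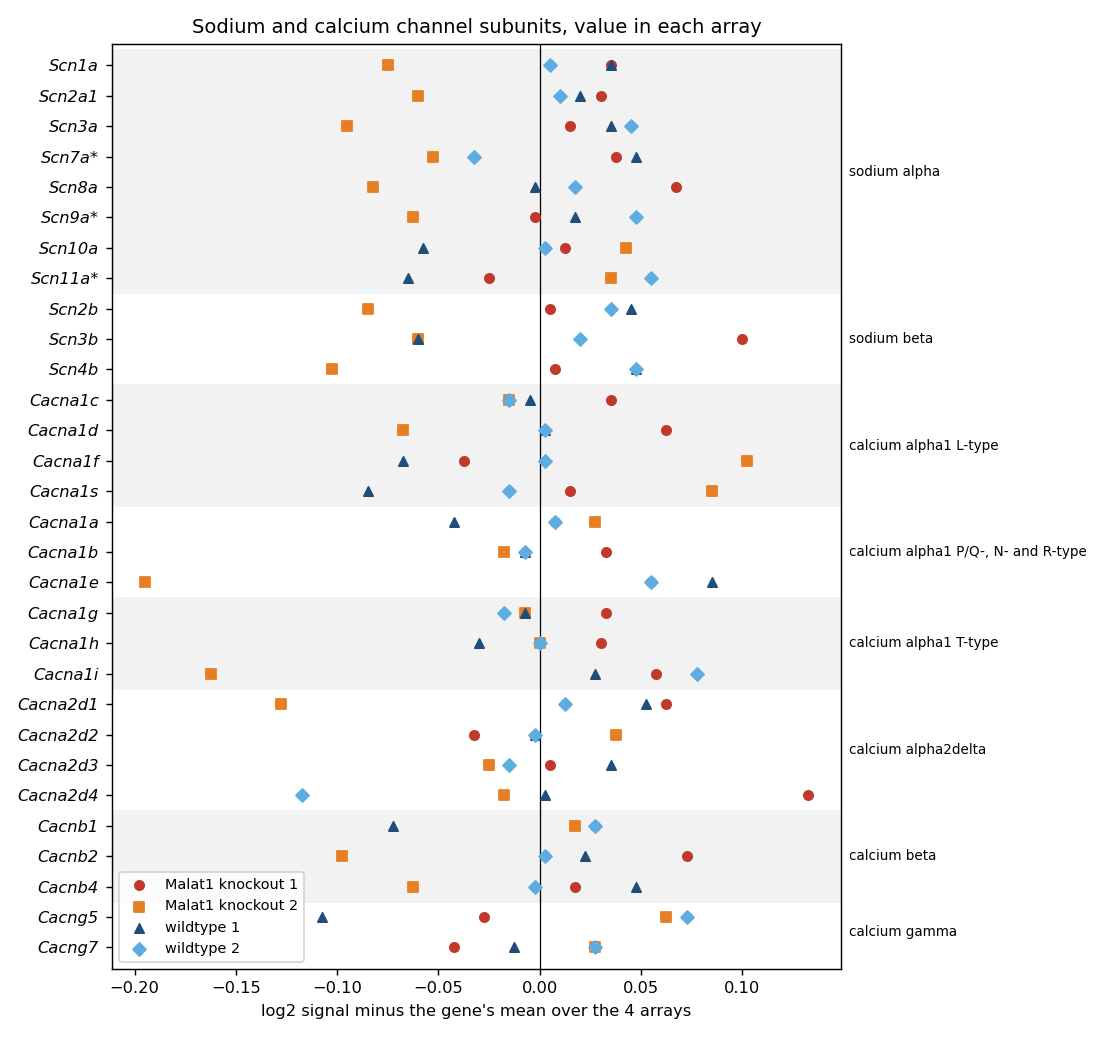
Log2 signal of each channel subunit in each of the 4 arrays, as the distance from the mean of the gene over the arrays (horizontal axis), with genes grouped by role. Knockout replicate 2 (orange squares) lies lowest for most sodium channel genes and for Cacna1e, Cacna1i and Cacna2d1, while knockout replicate 1 lies near the wildtype arrays. Asterisks mark the 3 genes below the filter.

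Knockout replicate 2 stood apart in the channel set as well. The median absolute difference over the 27 genes was 0.092 between the knockout arrays and 0.033 between the wildtype arrays, with 0.081 and 0.057 over all genes tested. Knockout replicate 2 had the lowest value of the 4 arrays in 15 of the 27 genes, against a share of 36.6% over all genes tested. For sodium channel genes this was 6 of 8 and for calcium channel genes 9 of 19. Knockout replicate 1 was lowest in 2 of the 27 (17.7% over all genes tested). Set against the wildtype mean, the median over the 27 genes was -0.028 in knockout replicate 2 and 0.024 in knockout replicate 1. Among the 8 sodium channel genes these medians were -0.090 and 0.018.

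Both knockout arrays lay below both wildtype arrays in 4 of the 27 genes (Scn3a, Scn2b, Scn4b and Cacna1e), and 14.3% of all genes tested did so. Both lay above in 3 (Scn10a, Cacna1s and Cacna1h), beside 14.7% of all genes tested. In Cacna1e and Cacna1h the nearest arrays of the groups differed by less than 0.01. Both shares are near those of all genes.

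The position of knockout replicate 2 moved with the signal level over the whole array. Among all genes tested, it was lowest in 26.5% of genes with a mean log2 signal under 7, in 50.9% of those from 7 to 8, in 53% of those from 8 to 9 and in 54.4% of those at 9 and over. In the channel set the same counts were 4 of 10, 5 of 8, 4 of 7 and 2 of 2. Its median distance from the mean of the other 3 arrays was 0.022 over all genes under 7 and -0.066 over those at 9 and over. In the channel set the medians were 0.008 and -0.187, the last over Cacna1e and Scn2b alone. The part of this level-dependent shift in the values of single channel genes was not tested.

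**Figure D3:**
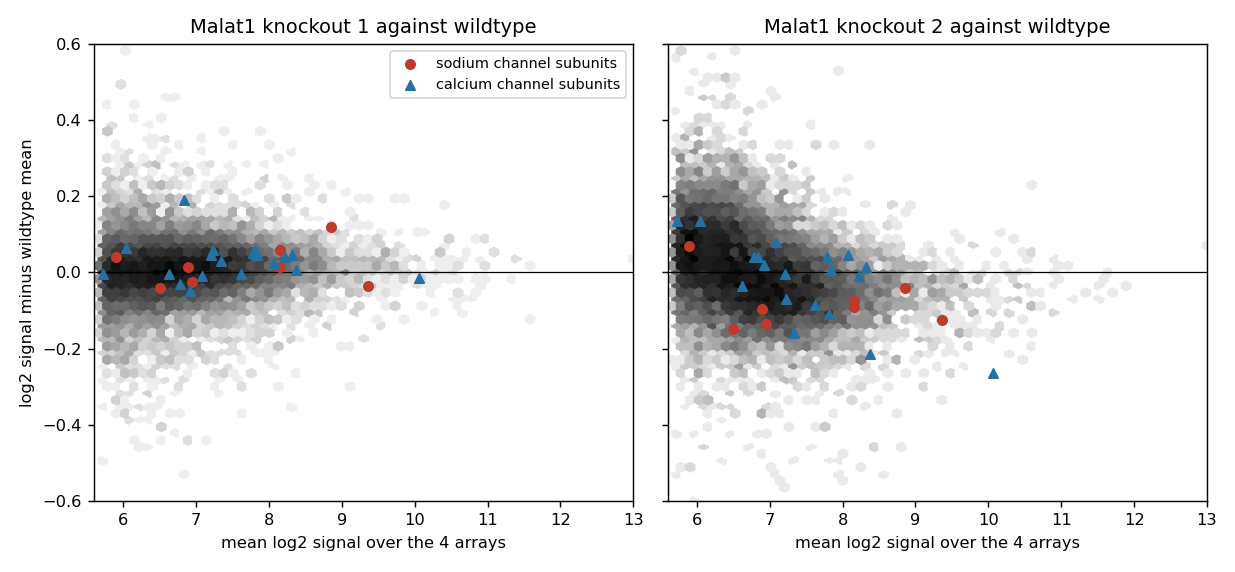
Log2 signal in knockout replicate 1 (left) and knockout replicate 2 (right) minus the wildtype mean, against the mean log2 signal over the 4 arrays, for all genes tested (grey, darker where genes are denser) and for the channel subunits (sodium, red circles; calcium, blue triangles). In the right panel the grey cloud tilts from above 0 at low signal to below 0 at high signal. The channel genes are drawn over it, with Cacna1e lowest among them, at the right. Genes beyond the axes are not drawn.

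For 5 genes of the set more than 1 transcript cluster carried the symbol, which allows a second look at the same gene. Cacna1e had 3 clusters, at differences of -0.14, -0.23 and -0.01 from the brightest to the dimmest. The middle cluster read 8.86 and 8.66 in knockout arrays, against 8.92 and 9.05 in wildtype arrays. Both knockout arrays thus lay below both wildtype arrays in the 2 brighter clusters. In the brightest, knockout replicate 1 and wildtype replicate 2 both read 10.12 after rounding. Knockout replicate 2 was lowest in both clusters, and clusters of a gene are read from the same animals, so they are not independent replicates. Cacna1i had differences of -0.11, 0.03 and 0.02. The low value of knockout replicate 2 in its brightest cluster did not recur in the middle cluster. There that array read 7.77, beside 7.80 in knockout replicate 1 and 7.74 and 7.79 in wildtype arrays. In the dimmest cluster it was lowest at 7.37, beside 7.47 in knockout replicate 1 and 7.38 and 7.42 in wildtype arrays.

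Cacna2d1 had a dim cluster, the lowest of 3, with 5.75 and 5.86 in knockout arrays, against 6.07 and 6.08 in wildtype arrays. Its groups did not overlap, and the difference was -0.27 (95% interval -0.44 to -0.11; limma over all named clusters without a filter, unadjusted p = 0.00907, adjusted p = 1). The brightest and the middle cluster of the same gene stood at -0.06 and 0.02. Cacna2d4 had 0.11, 0.04 and 0.28, the last in a cluster below the filter where knockout replicate 2 read 5.75 and the other arrays 5.19 to 5.33. In Scn3a the 4 clusters gave -0.08, 0.07, -0.12 and 0.00. The 2 dimmest lay below the filter and their intervals ran from -0.88 to 0.65 and from -0.57 to 0.57. Which exons, or which strand, each cluster covers was not analysed here.

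**Figure D4:**
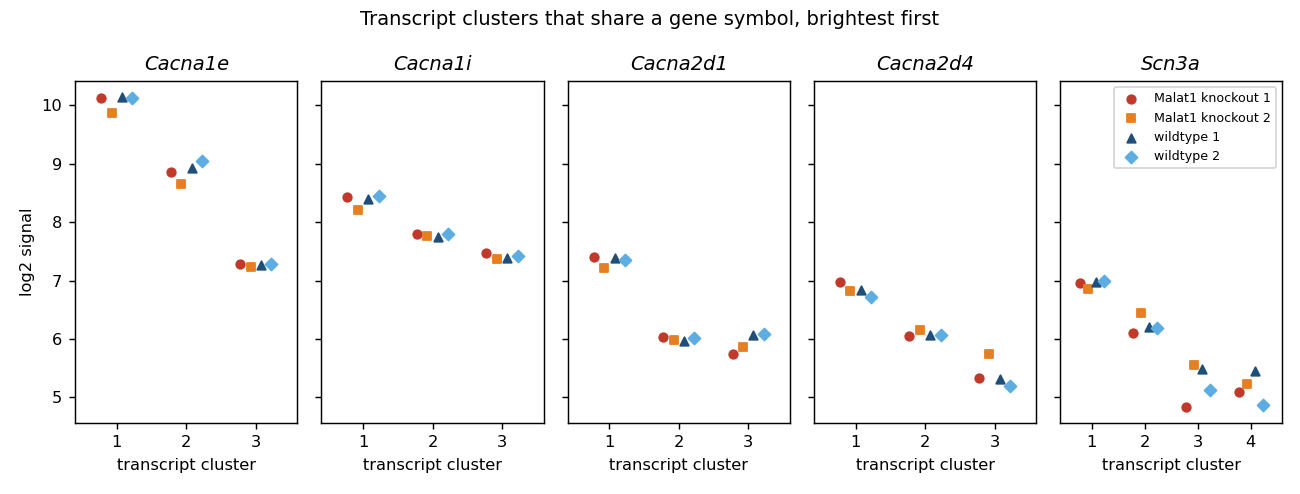
Log2 signal in each array (vertical axis) for the 5 channel genes with several transcript clusters, ordered from the brightest cluster on the left. Levels of different clusters are not comparable with each other. In the dimmest cluster of Cacna2d1 both knockout arrays (5.75 and 5.86) lie below both wildtype arrays (6.07 and 6.08).

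Genes that work with these channels gave 0 calls as well. In the list of sodium channel partners and the axon initial segment, 0 of 15 tested genes passed in either direction by limma. Of these, 3 lay above 0 and 12 below, beside 49.2% above 0 over all genes tested, and the median was -0.027. Knockout replicate 2 was the lowest array in 13 of the 15 (36.6% over all genes tested). Most of the 15 had a mean signal of 7 or over, where that share was 50.9% to 54.4% over all genes tested. Set against the wildtype mean, the median of the list was -0.086 in knockout replicate 2 and 0.02 in knockout replicate 1. Farthest from 0 were Fgf14, an intracellular FGF that binds sodium channels (-0.09), and Sptbn4, the spectrin of the initial segment (0.09). The adhesion molecule gene Cntn1 (-0.06) and the deubiquitinase gene Usp10 (-0.05) came next.

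Calcium channel partners and regulators counted 0 of 29 past the threshold, with 16 above 0 (49.2% over all genes tested) and a median of 0.007. Knockout replicate 2 was the lowest array in 8 of the 29 (36.6% over all genes tested). Cabp1, a calmodulin-like calcium-binding protein, read 9.45 and 9.0 in knockout arrays, against 9.06 and 9.0 in wildtype arrays. Its difference of 0.20 (95% interval -0.19 to 0.59) rested on knockout replicate 1 and was -0.03 without it. The release protein gene Stx1a stood at 0.10, the AMPA receptor auxiliary subunit Cacng3 at -0.10 and the muscle coupling protein gene Stac3 at 0.09.

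Other voltage-gated or leak cation channels counted 0 of 13, with a median of -0.004. Knockout replicate 2 was the lowest array in 7 of the 13 (36.6% over all genes tested). Unc80, a subunit of the sodium leak channel complex, stood at -0.14 (95% interval -0.39 to 0.11), the pacemaker channels Hcn4 and Hcn3 at 0.10 and 0.08, and the calcium-activated cation channel Trpm4 at 0.10. Genes of calcium release and removal counted 0 of 27, with 11 above 0 and 16 below and a median of -0.006. Knockout replicate 2 was the lowest array in 17 of these 27 (36.6% over all genes tested). Slc24a2, a potassium-dependent sodium-calcium exchanger, read 9.14 and 9.23 in knockout arrays, against 9.52 and 9.30 in wildtype arrays, a difference of -0.23 (95% interval -0.46 to 0.00). Both knockout arrays were below both wildtype arrays, and it did not pass (limma, adjusted p = 1). The exchanger Slc8a1 stood at -0.18, the store calcium sensor Stim2 at 0.14 and the calcium pump of fast muscle, Atp2a1, at 0.13. With 1 array left out, 5 of the 16 partner genes named here changed sign: Cabp1, Cntn1 (-0.15 to 0.02), Hcn3 (-0.05 to 0.20), Slc8a1 (-0.41 to 0.05) and Stim2 (-0.01 to 0.29). The mean over clusters put Slc24a2 at -0.14, Slc8a1 at -0.07, Stim2 at 0.07, Cabp1 at 0.12, Unc80 at -0.09 and Hcn3 at 0.07.

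No marker of a cell type or of a neighbouring tissue passed the test. Across the 15 marker lists, 0 of 57 tested genes were called by limma. At an unadjusted p under 0.05 there were 3 of the 57 (5.26%), near the 3.86% of all genes tested. They were Gad2, a GABA-synthesising enzyme (-0.17), Ttr, the transthyretin gene (-0.54), and the transcription factor gene Prdm12 (0.17). The lists of Gad2 and Ttr held genes on both sides of 0. The interneuron list had 2 genes above 0 and 5 below, with Sst at -0.11 and Gad1 at 0.00. In Sst, as in Gad2, both knockout arrays lay below both wildtype arrays. The choroid plexus list had 1 above (Folr1, 0.19) and 2 below. In the sensory ganglion list, that of Prdm12, all 3 tested genes lay above 0, with Avil at 0.05 and Pou4f1 at 0.00. Ttr read 5.73 and 5.86 in knockout arrays, near the filter. Of the 15 lists, 3 lay wholly above 0 (CA1, skeletal muscle and sensory ganglion) and 2 wholly below it (oligodendrocyte and dentate granule). The dentate granule list lay below 0 in 5 of 5 genes, with Prox1 at -0.14 and a median of -0.081. Knockout replicate 2 was its lowest array in 4 of 5 (36.6% over all genes tested). All of the 5 but Tdo2 had a mean signal of 7 or over, where that share was 50.9% to 54.4%. The summed signal of this list was 1452 and 1362 in knockout arrays, against 1523 and 1518 in wildtype arrays, on the linear scale. Prox1, by far its brightest gene (means of 9.71 in knockout and 9.84 in wildtype arrays), weighs most in that sum. C1ql2 stood at -0.02, and its groups overlapped. The oligodendrocyte list lay below 0 in 4 of 4 genes, with a median of -0.067. The part of dentate granule neurons in the channel values was not tested.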

How the data were processed

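The authors deposited a table of log2 signals with 265511 transcript clusters and 4 arrays. That the values are log2 was read from their range (4.16 to 14.26). How they corrected the background, normalized and summarized the probes was not given in the sources used here. Per the submitters' processing notes, mm9 was used as the build. Per the labels' protocols, labelled RNA was made with a 3' in vitro transcription kit, which copies RNA from the poly(A) tail, so signal may depend on distance from the 3' end.

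Symbols came from GEO's platform annotation, which gave 1 symbol to 27090 clusters, several to 2498 and none to 235923. Only clusters with 1 symbol were used. Clusters with a mean under the 25th percentile (5.70) were left out and the brightest cluster per gene was kept, which left 15995 genes. Genotype was tested with limma 3.58.1 (lmFit and eBayes, two-sided, R 4.3.3), with Benjamini-Hochberg adjustment over all 15995 genes, a threshold of 0.05, 2 residual and 2.98 prior degrees of freedom. The fit was tested on simulated data. The simulated differences were larger than any seen in the channel genes, so that check does not bear on differences of such size. With 2 arrays per group, their number limits the precision (median 95% half-width 0.16 over all genes tested). The p-values set each difference against the spread between these animals, which limma moderates toward that of the other genes.

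All channel genes were named, as were the 4 partner genes and the 1 marker gene per list with the largest absolute difference, beside Malat1 and any called gene. Gene members and lists were chosen with earlier results of these data known. Cacna2d1's dim cluster, the clusters of other genes and the counts by array were read after values were seen. Sequences are from RefSeq, GRCm38.p6, and were matched by gene identifier. Alternatives were other normalizations, filters, variance models and rows per gene, the replicate block, and leaving out each array.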

Additional observations from a re-analysis of the deposited data

How the results depend on the processing

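Channel genes past the adjusted threshold numbered 0 under all 12 alternatives. At an unadjusted p under 0.05 they numbered 0 to 2 with 1 array left out, the 2 being Cacna1e and Cacna1i without knockout replicate 1 (9.97% of all genes tested had such a p in that fit), and 1 of the 35 named channel clusters above the filter when each was fitted on its own, the dim Cacna2d1 cluster (4.02% of all clusters in that fit). The median difference of the channel genes ran from -0.028 (without knockout replicate 1) to 0.024 (without knockout replicate 2), and it was -0.021 with arrays centred on their medians, where the median of all genes was -0.016. Of the 27 genes, 16 changed sign when 1 array was left out and 11 did not, among them Scn2b, Scn4b, Cacna1e and Cacna2d4. Malat1 lost its call without either knockout array (-2.52, adjusted p = 0.0992, without replicate 1; -2.70, adjusted p = 0.0784, without replicate 2), so 0 genes were called there and 0 to 1 with any array left out; fewer samples were in those fits, and the lone knockout array was assumed to vary like the wildtype pair. The replicate block left the channel counts at 0 and the median at -0.006, with 837 genes at an unadjusted p under 0.05. The deviations of same-numbered arrays correlated at 0.06 across genes. With 2 arrays per genotype this cannot show whether same-numbered animals were littermates. The labels do not name the pairs, and the numbers were not taken as pairs in the main fit. The filter at the 50th percentile kept 24 of the 27 genes. The number of arrays limits the precision, with a median 95% half-width of 0.15 for the channel genes.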
